A study of Mus musculus with 4 samples.

Results

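The genes described here encode heterogeneous nuclear ribonucleoproteins (hnRNPs) other than hnRNP U, together with related RNA-binding proteins that act beside them in splicing, RNA stability and stress granules. The 34 genes were chosen by name from a list of these families, and each was looked up by its symbol in the authors' deposited table of 36814 rows. A row was found for 33 of them, of which 32 had a mean of at least 1 RPKM (reads per kilobase of transcript, scaled to the mapped reads of the library) over both groups. The symbol Ptbp3 had no row and was skipped. RNA sequencing was done on ventricles, with the atria removed, of mice at postnatal day 14. The 2 Hnrnpu mutant mice, 1 male and 1 female, came from crossing a conditional Hnrnpu knockout line with Ckmm-Cre transgenic mice, and the 2 controls, 1 male and 1 female, are labelled wild type. The 4 mice had a mixed C57BL/6 and 129 S4 background. Whether the control mice carried an unrecombined conditional allele or the transgene, and which exons are removed, is not given in the sources used here.

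Most hnRNPs bind nascent transcripts through RNA recognition motifs or KH domains. They influence which splice sites are used, how RNA is packaged and exported, and how long it lasts. Many members come as close paralogs with overlapping targets, and many control their own level through alternative exons that send the transcript to nonsense-mediated decay. In the heart after birth, alternative splicing shifts from fetal to adult patterns, and RNA-binding proteins take part in that shift. The Ckmm promoter is active in striated muscle, so fibroblasts, endothelial cells, mural cells and macrophages of the ventricle are outside its usual range of activity. In bulk ventricle, fewer cells of a type and less RNA per cell cannot be told apart.

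The authors' deposited table gives 1 RPKM value for each group and the result of 1 test per gene, so no value per mouse, no SD and no own test was at hand. Every level below is the authors' group value. A gene was called when the adjusted p-value of the authors' deposited table was below 0.05, and intervals of 95% were computed from the error that the deposited log2 fold change and p-value imply. Hnrnpu itself was listed at 15.2 RPKM in mutant ventricles and 32.7 RPKM in control ventricles, and the difference was not called (log2 fold change -1.10, adjusted p = 0.438 in the authors' deposited table). Its row spans 180253205 to 180267928 on the minus strand of chromosome 1 (mm9). Of the cell type markers, 10 of 10 cardiomyocyte genes were above 1 RPKM, and their summed level was 10220 RPKM in mutant and 9935 RPKM in control. That sum rests on Actc1, at 4530 RPKM in mutant and 2380 RPKM in control; the other 9 were listed lower in mutant, the median log2 fold change of the 10 was -0.44, and none was called. Ryr2, the sarcoplasmic reticulum calcium channel, had the lowest value of them, with 16.3 RPKM in mutant and 52.2 RPKM in control (p = 0.0461, adjusted p = 0.382 in the authors' deposited table). Over 9 macrophage markers the sum was 220 RPKM in mutant and 75.8 RPKM in control, over 7 mural markers 937 RPKM in mutant and 278 RPKM in control, and over 10 fibroblast markers 1017 RPKM in mutant and 765 RPKM in control. Acta2 alone had 802 RPKM in mutant and 158 RPKM in control, and the median log2 fold change of the mural markers was 0.08, with 2 of 7 listed lower. Of the fibroblast markers 4 of 10 were listed lower and 6 higher, with a median of 0.67, whereas all 8 macrophage markers at a mean of at least 1 RPKM were listed higher, with a median of 1.04. Over 4 erythroid markers the sum was 259 RPKM in mutant and 144 RPKM in control, and over 8 endothelial markers 135 RPKM in mutant and 151 RPKM in control. Of the endothelial markers 6 of 8 were listed lower, with a median log2 fold change of -0.42. No marker found was at 0 in either group; Lyz2 (macrophage), Tagln (mural) and Vwf (endothelial) rose past the same threshold, and no other marker was called. The part of these shifts in the results on hnRNP genes was not tested.

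The 3 stretches of upstream sequence are shown because they belong to the gene with the only called change (Tia1), to the gene with the next lowest p-value (Hnrnph3) and to an abundant gene whose group values were close together (Hnrnpl). Each is the 250 bases before the transcription start given by RefSeq on GRCm38.p6, written in the direction of the gene, with letters in capitals where a searched motif lies. They lie at chr6:86403969-86404218 (plus strand), chr10:63023850-63024099 (minus strand) and chr7:28810640-28810889 (plus strand).

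Tia1: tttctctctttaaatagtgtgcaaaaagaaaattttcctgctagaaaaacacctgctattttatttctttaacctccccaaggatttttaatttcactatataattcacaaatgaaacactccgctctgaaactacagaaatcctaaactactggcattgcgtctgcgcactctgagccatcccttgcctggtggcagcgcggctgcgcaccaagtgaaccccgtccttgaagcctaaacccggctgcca
Hnrnph3: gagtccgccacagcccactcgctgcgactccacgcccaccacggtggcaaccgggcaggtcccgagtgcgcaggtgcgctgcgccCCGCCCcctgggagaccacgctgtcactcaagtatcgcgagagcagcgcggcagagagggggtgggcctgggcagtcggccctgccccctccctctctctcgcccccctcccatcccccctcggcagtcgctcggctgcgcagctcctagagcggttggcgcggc
Hnrnpl: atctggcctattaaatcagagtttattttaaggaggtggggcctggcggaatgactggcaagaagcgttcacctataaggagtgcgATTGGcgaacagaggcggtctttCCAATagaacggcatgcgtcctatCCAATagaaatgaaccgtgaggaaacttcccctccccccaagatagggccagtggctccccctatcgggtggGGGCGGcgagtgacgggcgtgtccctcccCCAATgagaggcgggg

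Both strands were searched for 6 motifs. The TATA box was taken as TATAAA and the CCAAT box as its own letters. For the GC box, bound by SP1, the search used GGGCGG, and for sites of ETS factors it used CCGGAAG. A cyclic AMP response element was taken as TGACGTCA, and the NRF1 site as GCGC, any base, then TGCGC. No match overlapped another in the windows shown. Tia1 held none of these letters in its window, Hnrnph3 held 1 GC box and Hnrnpl held 4 CCAAT boxes and 1 GC box. The Tia1 window was 44% G and C with 8 CpG dinucleotides, against 73.6% and 25 for Hnrnph3 and 56.4% and 14 for Hnrnpl. Promoter windows were matched for 28 of the 33 genes, taking the first listed start of each. Of these, 18 (64.3%) held a GC box, against 32.9% of 27025 genes in the same table, and 14 (50%) held a CCAAT box, against 34.5%. A TATA box was present in 1 of the 28 (3.57%), against 13.0% of all. The ETS letters were present in 4 of the 28 (14.3%), against 7.05% of all, and neither the NRF1 letters nor those of the cyclic AMP response element were found in any of the 28, against 3.86% and 1.62% of all. The median window had 23 CpG dinucleotides among these genes and 6 among all.

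Tia1 fell, and it was the only one of the 33 genes to pass the test in the authors' deposited table. None rose. That is 1 of 33 genes, or 3.03%, beside 3.51% of all 24454 tested rows (2.03% higher and 1.48% lower in mutant), so the share called was close to the background. Among rows at a mean of at least 1 RPKM, 5.28% were called, 3.35% higher and 1.93% lower in mutant. The share with an unadjusted p-value below 0.05 was also close to the background, with 4 of 33 (12.1%) beside 12.6% of all tested rows (6.20% lower and 6.40% higher in mutant). All 4 of these, Tia1, Hnrnph3, Hnrnph1 and Khdrbs3, were lower in mutant ventricles. Among genes at a mean of at least 1 RPKM, 12.5% of the hnRNP and related genes had an unadjusted p-value below 0.05 in the lower direction, beside 7.25% of all 11292 rows at that level, where 17.0% passed in either direction. In the higher direction there were 0 of 32, beside 9.71% of all rows.

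**Figure D1:**
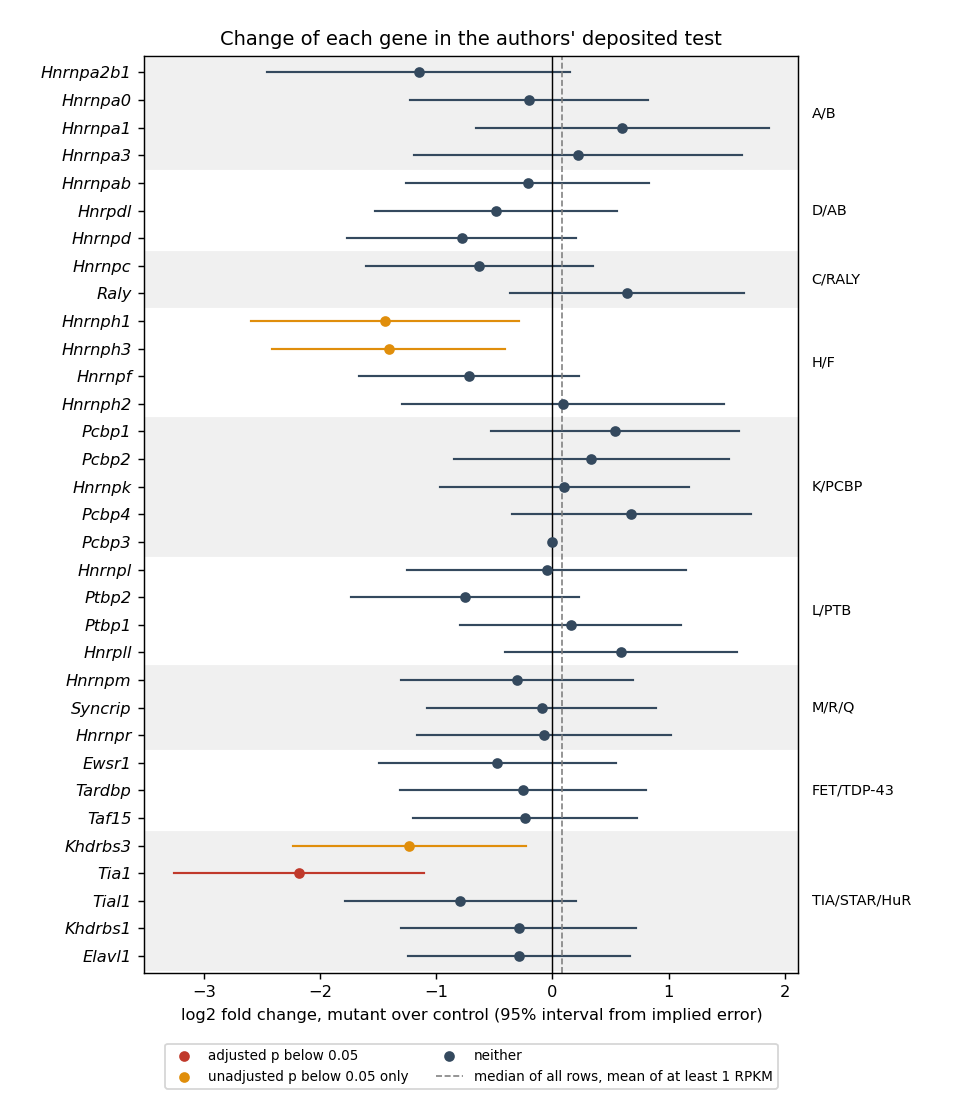
Log2 fold change of mutant over control (horizontal axis) for each of the 33 genes, grouped by family, with 95% intervals from the implied error (none for Pcbp3, whose deposited p-value is 1). The interval of Tia1, from -3.26 to -1.10, lies farthest from 0, and 28 of the 32 intervals include 0; the dashed line is the median of all rows, 0.08.

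The genes as a group stood slightly below control. Of the 32 at a mean of at least 1 RPKM, 22 (68.8%) were listed lower and 10 higher in mutant, beside 45.3% lower among all rows at that level. Their median log2 fold change was -0.24, beside 0.08 for all rows. The quartiles of the genes were -0.73 and 0.12, beside -0.42 and 0.57 for all rows. A 2-fold difference or more was listed for 5 of the 32 genes, each lower in mutant. That is a smaller share than among all rows at that level, where 19.9% reached it in either direction. The share of all rows that were 2-fold lower was not counted. Summed over the 33 genes, the level was 453 RPKM in mutant and 535 RPKM in control. Much of that difference lies in Hnrnpa2b1, at 40.9 RPKM in mutant and 90.5 RPKM in control, which was not called.

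**Figure D2:**
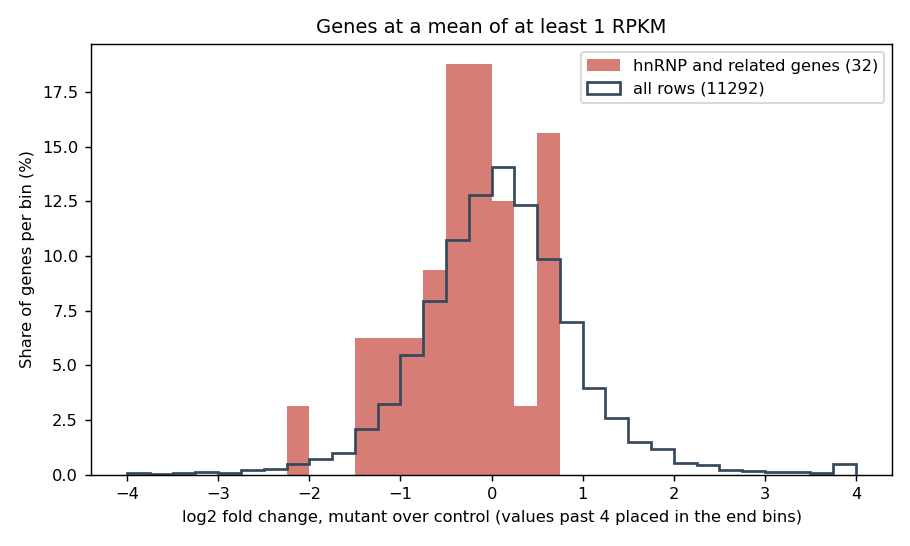
Share of genes (vertical axis, percent) by log2 fold change (horizontal axis, bins of 0.25) for the 32 hnRNP and related genes (filled) and all 11292 rows at a mean of at least 1 RPKM (line). The highest of the 32 genes is at 0.68, whereas the line runs on to the right, and the only filled bar past -2 is Tia1.

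The error of the deposited test limited what could be called. The implied error of the log2 fold change ran between 0.48 and 0.72 over 32 genes, with a median of 0.52, and the smallest change called at a mean of at least 1 RPKM was 3.03-fold. Each of the 32 intervals reached a 2-fold difference in at least 1 direction, so no gene named below without a call is shown to be unchanged.

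Levels differed widely between members. The 33 transcripts ranged over 0.737 to 57.2 RPKM in mutant ventricles, with a median of 7.92, and over 0.740 to 90.5 RPKM in control ventricles, with a median of 10.2. RPKM is scaled by transcript length, and the genes are ordered by it here. Sequence shared with other genes and overlapping rows, described below, may shift single values and with them the order and the ratios between genes. In mutant the order was led by Pcbp1, Pcbp2, Hnrnpl, Hnrnpa2b1 and Pcbp4, and in control by Hnrnpa2b1, Hnrnpl, Pcbp1, Pcbp2 and Hnrnph1. Hnrnpa2b1 made up 9.02% of the summed level in mutant and 16.9% in control. Tia1 was number 31 of 33 in mutant and number 20 in control.

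**Figure D3:**
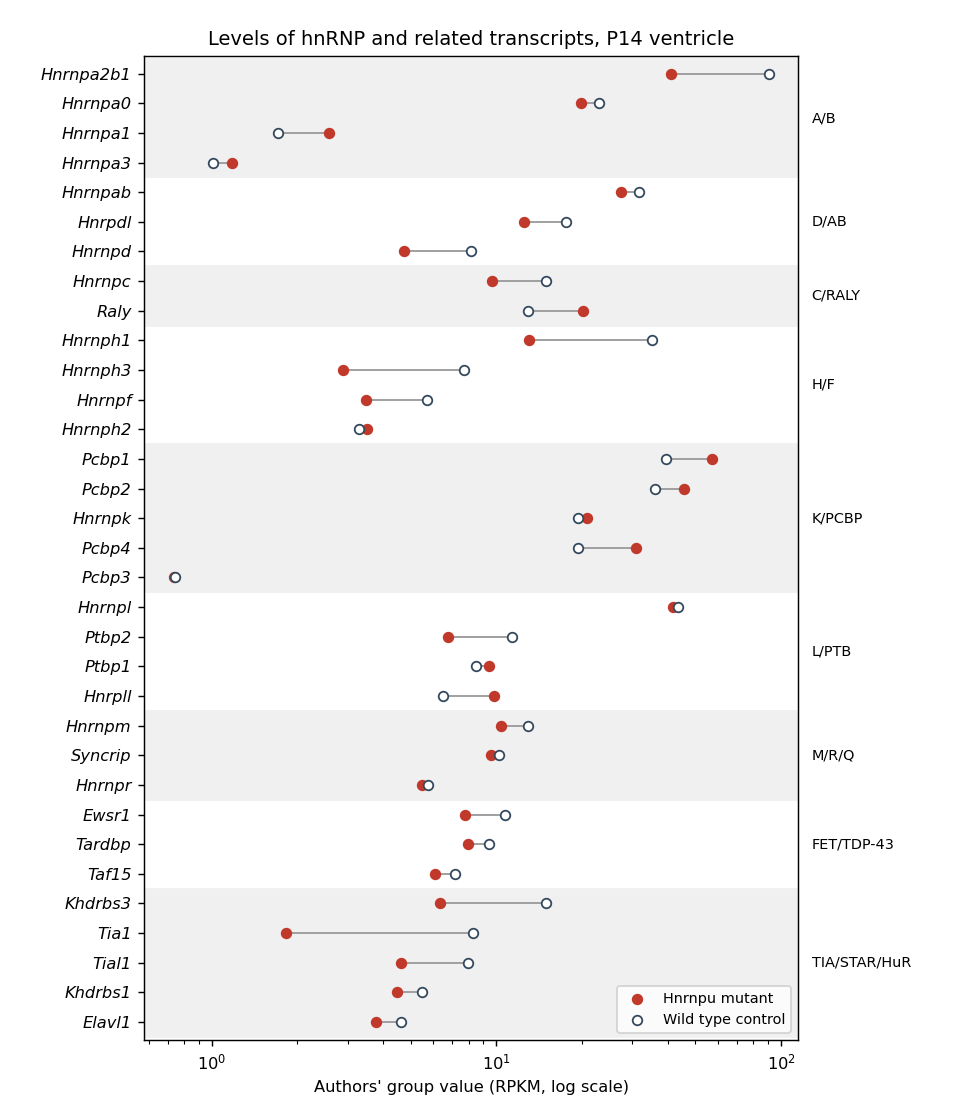
Authors' group value in RPKM (horizontal axis, log scale) of each gene in mutant (filled) and control (open), grouped by family and joined by a line. The longest line belongs to Tia1, with 1.83 RPKM in mutant and 8.28 RPKM in control, and in the H/F family the lines of Hnrnph1, Hnrnph3 and Hnrnpf run to the left in mutant whereas that of Hnrnph2 is short.

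Tia1 and Tial1 encode the paralogous proteins TIA-1 and TIAR, which bind uridine-rich RNA, promote the use of weak 5′ splice sites and gather in stress granules when translation initiation is blocked. Tia1 (chromosome 6, 86354213 to 86383397, plus strand, mm9) was listed at 1.83 RPKM in mutant and 8.28 RPKM in control ventricles. Its log2 fold change in the authors' deposited table was -2.18 (4.52-fold lower, 95% interval -3.26 to -1.10), with p = 7.23e-05 and adjusted p = 0.00458. Among the fold changes of all rows at a mean of at least 1 RPKM it lay at percentile 0.956. Tial1 was listed at 4.61 RPKM in mutant and 7.97 RPKM in control, and was not called. The Tia1 to Tial1 ratio was therefore 0.397 in mutant and 1.04 in control, where the pair stood at near equal levels. No test of this difference between the 2 genes was possible from group values. The later GENCODE annotation (M21) lists 28 transcripts for Tia1, of which 5 are protein coding, 4 are marked for nonsense-mediated decay and 14 retain an intron. For Tial1 it lists 14, 6, 4 and 4 of the same kinds. Values per isoform were not analysed here, so which Tia1 transcripts were lower is not known from these data.

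The other genes of this group bind AU-rich or related sequences. Khdrbs3 and Khdrbs1 encode STAR-family proteins (T-STAR and Sam68) that regulate alternative exons through paired UAAA-type sites, and Elavl1 encodes HuR, which stabilises transcripts with AU-rich elements. Khdrbs3 was listed at 6.35 RPKM in mutant and 14.9 RPKM in control. It was not called in the authors' deposited table, with a log2 fold change of -1.23 (95% interval -2.23 to -0.23), p = 0.0159 and adjusted p = 0.209. Khdrbs1 was listed at 4.49 RPKM in mutant and 5.48 RPKM in control, so the ratio of Khdrbs1 to Khdrbs3 was 0.707 in mutant and 0.368 in control. Elavl1 stood at 3.79 RPKM in mutant and 4.63 RPKM in control. All 5 genes of the TIA, STAR and HuR group were listed below control, with a median log2 fold change of -0.79 and summed levels of 21.1 RPKM in mutant and 41.3 RPKM in control, and 1 of the 5 was called.

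Hnrnph1, Hnrnph2, Hnrnph3 and Hnrnpf encode the H/F proteins, which recognise runs of guanosines through quasi RNA recognition motifs and act as enhancers or silencers of nearby exons. None of the 4 was called. Hnrnph3 (chromosome 10, 62477412 to 62486965, minus strand, mm9) was listed at 2.90 RPKM in mutant and 7.71 RPKM in control, a log2 fold change of -1.41 (95% interval -2.41 to -0.41) with p = 0.00589 and adjusted p = 0.113 in the authors' deposited table. Hnrnph1 (chromosome 11, 50190492 to 50200030, plus strand, mm9), the most abundant of the 4 in both groups, had 13.0 RPKM in mutant and 35.2 RPKM in control, with a log2 fold change of -1.44 (95% interval -2.59 to -0.29), p = 0.0142 and adjusted p = 0.193 in the authors' deposited table. The proportion between them was nearly the same in both groups, at 4.48 in mutant and 4.57 in control. Hnrnpf was listed at 3.48 RPKM in mutant and 5.72 RPKM in control. Hnrnph2, on the X chromosome, was listed at 3.50 RPKM in mutant and 3.29 RPKM in control. Summed over the family, the level was 22.9 RPKM in mutant and 51.9 RPKM in control, the lowest ratio of any family at 0.441, and its share of the 33 genes was 5.05% in mutant and 9.70% in control. Rufy2, whose row overlaps that of Hnrnph3 on the plus strand, stood at 1.74 RPKM in mutant and 3.81 RPKM in control without a call. The use of strand in counting is not given in the sources used here, so their reads may be mixed.

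In the K/PCBP family the 4 genes at a mean of at least 1 RPKM were listed above control, with intervals that all include 0. Among all rows at that level 45.3% were listed lower. The log2 fold change of Hnrnpk, 0.10, lay at percentile 50.9 of those rows, near their middle. Hnrnpk encodes hnRNP K, and Pcbp1 to Pcbp4 encode the poly(C)-binding proteins, which bind cytidine-rich RNA, stabilise long-lived transcripts and, for the products of Pcbp1 and Pcbp2, deliver iron to enzymes. None was called. Pcbp1 was listed at 57.2 RPKM in mutant and 39.3 RPKM in control, with a log2 fold change of 0.54 (95% interval -0.53 to 1.61), p = 0.320 and adjusted p = 0.867 in the authors' deposited table. Pcbp2 was listed at 45.7 RPKM in mutant and 36.2 RPKM in control. For Pcbp4, at 30.9 RPKM in mutant and 19.3 RPKM in control, the log2 fold change was 0.68 (95% interval -0.35 to 1.71), the highest of the 33 genes, with p = 0.194 and adjusted p = 0.718 in the authors' deposited table. Hnrnpk had 20.8 RPKM in mutant and 19.4 RPKM in control, and Pcbp3, below 1 RPKM, had 0.737 RPKM in mutant and 0.740 RPKM in control. The family summed to 155 RPKM in mutant and 115 RPKM in control. It took 34.3% of the summed level of the 33 genes in mutant and 21.5% in control.

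**Figure D4:**
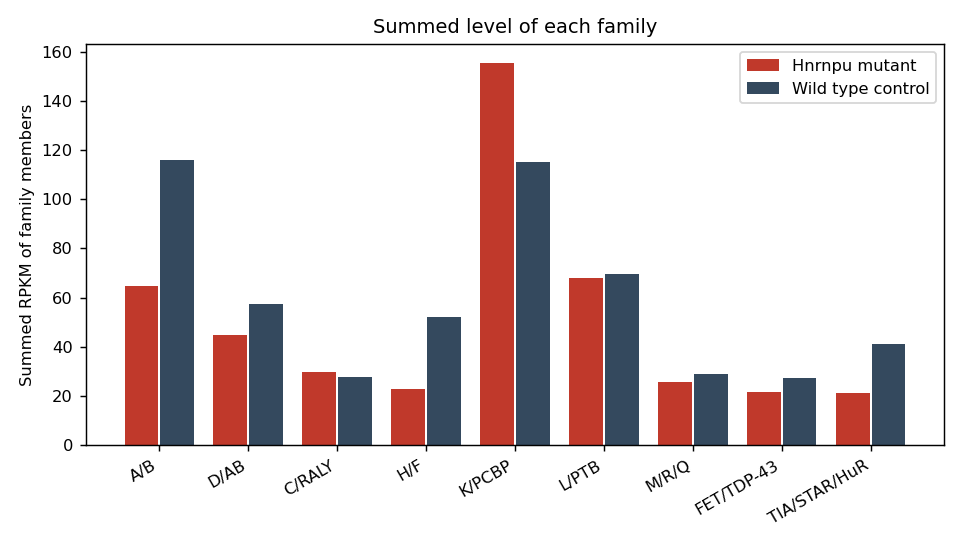
Summed RPKM (vertical axis) of the members of each family in mutant (left bar) and control (right bar), from 1 group value per gene and so without error bars. The K/PCBP family stands at 155 RPKM in mutant and 115 RPKM in control, the A/B family at 64.6 RPKM in mutant and 116 RPKM in control, and the H/F family at 22.9 RPKM in mutant and 51.9 RPKM in control.

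In the A/B family, whose proteins bind UAG-containing sites and often silence exons, 1 gene made up most of the sum. Hnrnpa2b1 (chromosome 6, 51410433 to 51419893, minus strand, mm9) was listed at 40.9 RPKM in mutant and 90.5 RPKM in control. Its log2 fold change was -1.15 (95% interval -2.45 to 0.15), with p = 0.0835 and adjusted p = 0.508 in the authors' deposited table. Hnrnpa0, a gene of a single annotated transcript, was listed at 19.9 RPKM in mutant and 22.9 RPKM in control. Hnrnpa1, at 2.59 RPKM in mutant and 1.71 RPKM in control, had a log2 fold change of 0.60 (95% interval -0.66 to 1.86), with p = 0.348 and adjusted p = 0.889 in the authors' deposited table. Hnrnpa3 was listed at 1.18 RPKM in mutant and 1.01 RPKM in control. The Hnrnpa2b1 level was 34.7 times that of Hnrnpa3 in mutant and 89.6 times in control. Sequence that Hnrnpa3 shares with other genes, described below, may affect this ratio.

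The D family proteins, among them AUF1 from Hnrnpd, bind AU-rich elements and influence RNA decay. Each of the 3 genes was listed below control and none was called. Hnrnpab had 27.4 RPKM in mutant and 31.8 RPKM in control, Hnrpdl 12.5 RPKM in mutant and 17.5 RPKM in control, and Hnrnpd 4.74 RPKM in mutant and 8.12 RPKM in control. The related proteins hnRNP C, which binds uridine tracts and holds unspliced RNA in the nucleus, and Raly, its paralog, were listed in opposite directions. Hnrnpc was at 9.64 RPKM in mutant and 14.9 RPKM in control. Raly was at 20.1 RPKM in mutant and 12.9 RPKM in control, a log2 fold change of 0.64 (95% interval -0.36 to 1.65) with p = 0.211 and adjusted p = 0.740 in the authors' deposited table. The Hnrnpc to Raly ratio was therefore 0.480 in mutant and 1.16 in control, again without a possible test. The Raly row overlaps that of the gene a (nonagouti) on the same strand, which stood at 4.47 RPKM in mutant and 1.80 RPKM in control without a call, so reads of these genes may be mixed. In all, 12 of the 33 genes overlap another row of the table. None of the tested overlapping rows was called, beside 3.51% of all tested rows, so with so few rows this is near the background. The overlapping rows Mir7-1 and U6.659, at 0 RPKM in both groups, had no adjusted p-value.

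Hnrnpl and Hnrpll encode hnRNP L and its paralog, which bind CA-rich RNA, and Ptbp1 and Ptbp2 encode polypyrimidine tract-binding proteins, which silence exons flanked by CU-rich tracts. Hnrnpl was listed at 41.8 RPKM in mutant and 43.3 RPKM in control, with a log2 fold change of -0.05 (95% interval -1.25 to 1.15), p = 0.935 and adjusted p = 1 in the authors' deposited table. Hnrpll was at 9.80 RPKM in mutant and 6.50 RPKM in control. Ptbp1 was at 9.45 RPKM in mutant and 8.46 RPKM in control, whereas Ptbp2, known as the form that replaces Ptbp1 in neurons, was at 6.76 RPKM in mutant and 11.3 RPKM in control. The Ptbp1 to Ptbp2 ratio was 1.40 in mutant and 0.749 in control. None of these 4 genes was called. A row named Rod1, which RefSeq gives as a synonym of Ptbp3, was listed at 6.99 RPKM in mutant and 6.11 RPKM in control; it was left out of all counts.

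Hnrnpm, which binds GU-rich RNA, Hnrnpr and Syncrip, the gene of hnRNP Q, were each within 0.31 of 0 on the log2 scale. Hnrnpm was listed at 10.4 RPKM in mutant and 12.9 RPKM in control, Syncrip at 9.56 RPKM in mutant and 10.2 RPKM in control, and Hnrnpr at 5.49 RPKM in mutant and 5.77 RPKM in control. Ewsr1 and Taf15 encode FET proteins, which bind RNA and RNA polymerase II, and Tardbp encodes a protein that binds UG repeats and represses cryptic exons. Ewsr1 was listed at 7.73 RPKM in mutant and 10.7 RPKM in control, Taf15 at 6.07 RPKM in mutant and 7.15 RPKM in control, and Tardbp at 7.92 RPKM in mutant and 9.43 RPKM in control. None of these 6 genes was called in the authors' deposited table.

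Some values are uncertain because the genes share sequence with other genes, either at other loci or where 2 genes overlap. For each gene, every stretch of 50 bases in its protein coding transcripts (GENCODE M21) was looked for in the transcripts of all other genes. The share found elsewhere was over 20% for 10 of the 33 genes, under 10% for 22, and 0% for 7. It was 6.57% for Tia1, 4.42% for Hnrnph1, 2.69% for Hnrnph3, 1.60% for Hnrnpa2b1 and 0% for Khdrbs3. Hnrnpf reached 61.9%, Hnrnpa1 46.7%, Pcbp2 38.7% and Hnrnpa3 27.7%. For Hnrnpa1, 10 pseudogenes shared at least 100 such stretches, and for Hnrnpa3, 24 did. Most of the shared stretches of Pcbp2, 35.2% of all its stretches, lay in the overlapping gene Map3k12. For Hnrnpm, 21.2% of all stretches lay in the overlapping gene March2, and for Tardbp, 21.0% lay in the overlapping gene Masp2. The counts of genes by share above hold both kinds of sharing.

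Among pseudogene rows chosen after their values were seen, Gm7964, which shares 19.2% of the Hnrnpk stretches, was listed at 39.2 RPKM in mutant and 26.3 RPKM in control, above Hnrnpk itself in both groups. Gm12696, which shares 8.20% of the Hnrnpc stretches, was listed at 9.88 RPKM in mutant and 13.7 RPKM in control, close to Hnrnpc in both. How the authors treated reads that match several places is not given in the sources used here, and the part of shared sequence in these levels was not tested.

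**Figure D5:**
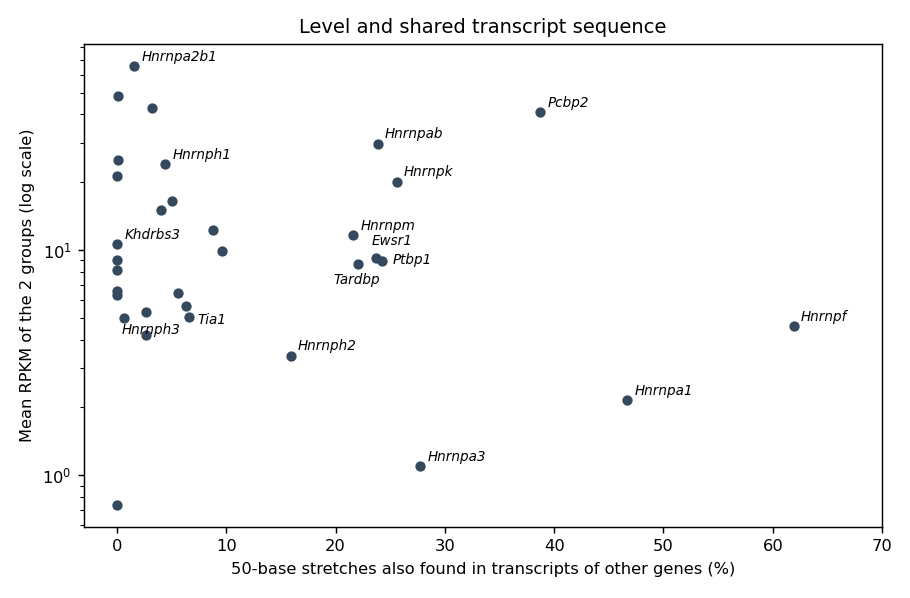
Mean RPKM of both groups (vertical axis, log scale) against the share of 50-base stretches of each gene that also occur in transcripts of other genes (horizontal axis, percent), for the 33 genes. Hnrnpa1 and Hnrnpa3 combine low levels with shares of 46.7% and 27.7%, whereas Tia1, Hnrnph1, Hnrnph3 and Khdrbs3 all lie under 10%. Other genes go the other way: Pcbp2 at 38.7% and Hnrnpk at 25.6% stand at 40.95 and 20.1 RPKM. Pcbp3, the lowest of the 33 at 0.7385 RPKM, has a share of 0%.

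Transcripts marked for nonsense-mediated decay were annotated for 19 of the 33 genes (57.6%), against 29.6% of 9165 protein coding genes of the table at a mean of at least 1 RPKM. The median number of annotated transcripts was 11, against 5. Among the genes at a mean of at least 1 RPKM, the 18 with such a transcript had a median log2 fold change of -0.27, and the 14 without one had -0.23.

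A list of 40 other RNA-binding genes gave 0 calls in the authors' deposited table (the processing notes name DESeq), beside 3.51% of all tested rows. An unadjusted p-value below 0.05 was listed for 4 of the 40 (10%), beside 12.6% of all tested rows. At a mean of at least 1 RPKM it was 2 of 33 (6.06%), beside 17.0% of all rows at that level. The median log2 fold change of these 33 was -0.09, with 19 lower (57.6%) and 14 higher. Among all rows at that level the median was 0.08 and 45.3% were lower. Ddx17, an RNA helicase that works with hnRNP H proteins, was listed at 23.0 RPKM in mutant and 47.3 RPKM in control (adjusted p = 0.514 in the authors' deposited table). Igf2bp2, which binds and stabilises fetal growth transcripts, was listed at 1.83 RPKM in mutant and 0.634 RPKM in control (p = 0.00423, adjusted p = 0.0903 in the authors' deposited table). Its paralog Igf2bp1 had 0.144 RPKM in mutant and 0.0274 RPKM in control (p = 0.00711, adjusted p = 0.128 in the authors' deposited table). The neuronal HuR relative Elavl2 had 0.0373 RPKM in mutant and 0.174 RPKM in control (p = 0.0123, adjusted p = 0.178 in the authors' deposited table). Both lay far below 1 RPKM, with an implied error of 0.89 each. Cirbp, a protein induced by cold, was listed at 12.5 RPKM in mutant and 6.57 RPKM in control (adjusted p = 0.434 in the authors' deposited table).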

How the data were processed

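The labels place 4 samples in 2 groups, 2 Hnrnpu mutant and 2 wild type. Per the file headers, the authors deposited 1 RPKM value for each group, the ratio (fold) of mutant to control, the same ratio as log2, and p-values before and after adjustment. Bowtie 0.12.9, DESeq and the build mm9 appear in the submitters' processing notes without roles. The annotation, the read counter and the handling of strand and of reads with several matches: not given in the sources used here.

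Values were read with pandas 2.3.3 under Python 3.11.15. The deposited adjusted p-value was used as it stands, over 24454 tested rows; a Benjamini-Hochberg adjustment recomputed from the deposited p-values differed from it by at most 0.593%. The Benjamini-Hochberg recomputation was tested on simulated data, which cannot show how well the implied error described next fits the authors' test. The implied error is the log2 fold change divided by the normal score of the p-value (scipy 1.17.1), an approximation to the authors' test. Nothing says that the mice of a group came from separate litters, and the deposited p-values rest on these samples alone. How the authors' test estimated the spread between mice is not given in the sources used here. Total counts are not given. The lowest values of snoRNA, snRNA and miRNA rows, multiplied by row length, fall on steps. If each RPKM averages 2 libraries scaled by mapped reads, these steps put the mutant group at 2.44 times the depth of the control group.

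The members and lists were chosen with earlier results of these data known. Each member found was named with its RPKM values; p-values were printed for members with an unadjusted p-value below 0.05, for the 3 largest changes in each direction and for the 3 members highest in control. Of the other RNA-binding genes, those with an unadjusted p-value below 0.05 and the 2 largest changes in each direction were named, except 1 gene that is not reported here. Coordinates are mm9 from the table, except the promoter windows (RefSeq, GRCm38.p6).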

Additional observations from a re-analysis of the deposited data

How the results depend on the processing

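The call of Tia1 and the absence of other calls held with the adjusted p-value threshold at 0.1 or 0.01 and with the adjustment made over rows at a mean of at least 1 RPKM, where the Benjamini-Hochberg adjusted p of the authors' deposited p-values (DESeq is named in the processing notes) was 0.00294 for Tia1 and 0.0782 for Hnrnph3. At an unadjusted p-value below 0.01 the count of members was 2 in place of 4. At an adjusted p-value below 0.1, 1 of the other RNA-binding genes was called in place of 0. The shares of all rows at these other thresholds were not counted, so these counts cannot be set against a background. The median log2 fold change of the members ran between -0.33 (centred on the median of all rows) and -0.22 (pseudocount 1), and the count below control was 19 of 26 (73.1%) at a mean of at least 5 RPKM and 23 of 33 (69.7%) with no filter, beside 22 of 32 (68.8%). The log2 fold changes of the 32 members, 64 alternative values in all, kept their sign and moved by less than the implied error with a pseudocount of 1 and after centring. Centring subtracts the same 0.08 from each value. That is below the lowest implied error of 0.48, so the size of its moves was fixed in advance. Adding the same pseudocount to both groups cannot change a sign, and centring cannot change the sign of a value below 0. Those sign checks were therefore also fixed in advance and show nothing about stability. With a pseudocount of 1, Tia1 was at -1.71 in place of -2.18. No paired analysis was possible because the table gives 1 value per group and none per mouse, and for the same reason no mouse could be left out in turn. Group values cannot show whether both mutant mice shared a change.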
